A study of Schizosaccharomyces pombe with 12 samples.

Results

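The total RNA table of fission yeast (Schizosaccharomyces pombe) was compared between delta4dus and wild type, row by row, with each row read beside the gene on the other strand. A row is the raw read count of 1 annotated transcript, named by its systematic ID. The rows described are the 2982 of 5136 that held a mean of at least 20 counts over the 6 total RNA libraries, 58.1% of the table. The row of rps2, a small-subunit ribosomal protein gene, sat at the edge with a mean of 20, and the row of vps1, a dynamin-like sorting gene, fell just short with 19.8. Of the 2982 rows, 2767 averaged at least 20 counts in both genotypes, 195 in delta4dus only and 20 in wild type only. The last 2 groups passed through the genotype in which they were higher, so their direction was set by the minimum. Of the 2982, 2980 passed edgeR's filter on low counts and were tested.

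Both genotypes were grown to mid-log phase with no cycloheximide and harvested by filtration, and the total RNA came from a frozen portion of the harvest. The name delta4dus was read as loss of 4 genes, dus1 to dus4, that encode dihydrouridine synthases, since the labels give neither the deletion alleles nor the parent strain. There were 3 libraries per genotype, lettered A to C, and a matching set of ribosome footprints (28 to 32 nt), which serves here only as a second readout. Whether A, B and C came from different cultures is not stated in the labels, and the spread that the p-values rest on may be technical.

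Dihydrouridine synthases reduce uridine to dihydrouridine in RNA, best known in the D loop of tRNAs. Fission yeast genes are packed closely, and many neighbours on opposite strands overlap at their ends, most often tail to tail. Where a stranded library is counted by gene, the strand setting decides which of the overlapping genes a read is given to, and non-coding antisense transcripts lie opposite many coding genes. The strand setting of these counts is not given in the sources used here.

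The libraries held 1886954 to 2199320 counts each. Between libraries of 1 genotype, Spearman's rho across rows was 0.969 to 0.98, and every pair differed by more than counting noise (chi-square of 1.75 to 4.57 per degree of freedom). Levels are CPM, read counts scaled to the TMM-adjusted size of the library, and are not divided by transcript length. A change is the log2 ratio of delta4dus to wild type, with n = 3 per genotype, and the adjusted p (Benjamini-Hochberg) comes from edgeR's quasi-likelihood test over 3791 rows. An exact permutation test of 3 against 3 cannot go below p = 0.1.

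Among rows with a coding gene opposite, levels followed the footprints opposite more than those of the gene the row is named for. In the ASM294v3 annotation, a coding gene overlapped on the other strand in 1533 of the 2982 rows (51.4%), against 17.9% of the 2154 rows below the minimum. A further 1245 rows had only annotated non-coding RNA opposite, 193 had nothing annotated there and 11 did not match the annotation. Across 1511 rows with at least 90% of the opposite footprint signal from 1 gene (single-partner rows), row level had a rho of 0.65 with the footprint signal opposite. Taken per kb of exon, the same rows had a rho of -0.03 with the footprints of their own gene per kb of coding length. The measures are unlike, since row level was not divided by length in the first. These are descriptions across rows that share libraries, and rows are not replicates. Ribosomal protein genes were thinly represented by name: of 137 matched cytoplasmic ribosomal protein genes, 19 had a row above the minimum. The 11 rows of the mitochondrial genome had 0 counts in all 6 total RNA libraries, against 15123 footprint counts, 63 to 9762 per row.

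The highest rows show the reading. The row of the uncharacterised SPCC13B11.02c (chromosome III) alone held 8.14% to 8.93% of each library's counts. It held 97915, 97407 and 87513 CPM in wild type and 77536, 74206 and 80380 CPM in delta4dus (-0.28, adjusted p = 0.00974), with no overlap, and its call ended without wild type A (0.0840) or B (0.0851) or delta4dus A (0.0944) or B (0.0535). Its own footprints were near 1 CPM in both genotypes. Nothing annotated overlaps it on the other strand, and the nearest gene there, 512 bases away and pointing towards it, is adh1, the main alcohol dehydrogenase of fermentation. The row of adh1 itself held only 102 to 171 CPM. The highest row with a coding partner was that of str2, a siderophore-iron transporter gene, whose partner is the ribosomal protein gene rpl6. Behind it came SPAPB17E12.14c opposite rpl1802, spc24 opposite the translation factor gene tif512, ice2 opposite rps23 and pdp1 opposite rps902. In each of these 5 pairs the partner lies inside the row.

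Of the 2980 rows tested, 808 were called at an adjusted p under 0.05 (27.1%), 420 higher (14.1%) and 388 lower (13%) in delta4dus. Over all 3791 rows of the fit, 22.9% were called. The median change was 0.06, with quartiles of -0.16 and 0.33. Most changes were small: 74 rows rose at least 2-fold (2.48%) and 15 fell at least 2-fold (0.503%). The libraries of the genotypes did not overlap in 1221 of the 2982 rows (40.9%). Without rows that passed the minimum in 1 genotype only, 360 rose and 382 fell. The split depends on the scaling. With library totals in place of TMM the median moved by 0.19 and 727 rose against 79 that fell (90.2% higher), with DESeq2 229 rose against 420 (35.3% higher), and with RLE factors 338 against 520 (39.4%). Leaving out wild type replicate A left 262 higher and 234 lower, leaving out delta4dus replicate A left 241 and 185, and leaving out delta4dus replicate B left 265 and 197.

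The sign of a change followed the level of the row. Rows were ranked by mean CPM over the 6 libraries and taken in steps of 10%. In the top 10% (533 to 85826 CPM), 6 rows rose, 194 fell and 99 did not pass, with a median change of -0.23. In the lower 50% (up to 45.6 CPM), 237 rose, 27 fell and 1227 did not pass, with a median of 0.21. Between them the medians passed through 0.11, 0.09, -0.04 and -0.13 with rising level. Across all 2980 rows, rho of change with level was -0.41. The gap between the medians of the lower 50% and the top 10% was 0.43, and it ran from 0.38 without wild type replicate B to 0.49 without wild type replicate C. Scaling shifts all rows alike and left the gap at 0.43 with library totals. The direction of the top 10% held under library totals (median -0.03), but only 38 of its rows were then called lower and 27 higher. In rows with at least 20 counts in both genotypes, the lower 50% had a median of 0.17, with 178 higher and 22 lower.

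The shift was present library by library. The top 10% of rows held 78.7%, 78.5% and 76.6% of the counts in wild type A, B and C, and 74.9%, 74.1% and 75.6% in delta4dus A, B and C. The lower 50% held 2.77%, 2.71% and 3.11% in wild type and 3.81%, 3.95% and 3.60% in delta4dus. Neither measure overlapped between the genotypes (exact permutation p = 0.1, the smallest possible), and wild type C lay nearest to delta4dus in both. The lower 50% includes rows that passed the minimum in delta4dus only, whose direction was set by the minimum. Its share was not computed without them, so its p-value cannot separate the shift from the effect of the minimum. Footprints ran the other way: over the 3821 footprint rows with the same minimum, the top 10% had a median of 0.27 and the lower 50% -0.09. RNA quality was not measured in these files, and its part in the shift was not tested.

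**Figure D1:**
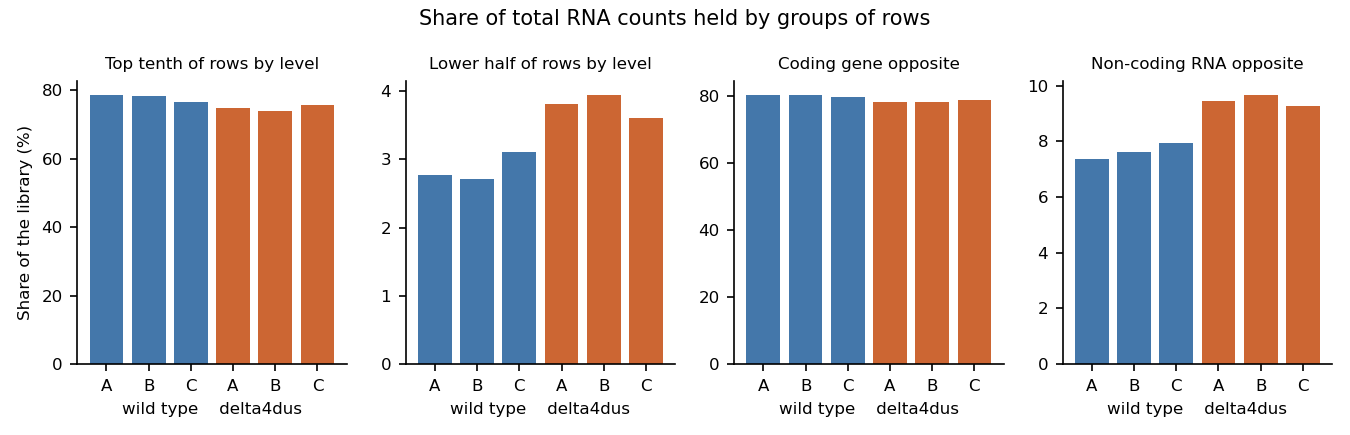
Percent of each total RNA library's counts (vertical axis, from 0) in 4 groups of rows, 1 bar per library, wild type in blue and delta4dus in orange. The top 10% of rows holds 76.6% to 78.7% in wild type and 74.1% to 75.6% in delta4dus, and rows with non-coding RNA opposite hold more in every delta4dus library than in any wild-type library.

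What lay opposite a row and the direction of its change were related. Of 1243 tested rows with only non-coding RNA opposite, 292 rose and 71 fell, with a median of 0.21. Of 1533 rows with a coding gene opposite, 91 rose and 305 fell, with a median of -0.05, and of 193 with nothing annotated opposite, 36 rose and 10 fell (median 0.12). The non-coding group took 7.37% to 7.93% of a wild-type library and 9.26% to 9.66% of a delta4dus library. Level differs between the classes, with a median of 83.3 CPM for rows with a coding gene opposite and 28.4 CPM for rows with non-coding RNA opposite. Within the lower 50% by level, the medians were 0.14 (537 rows, coding) and 0.24 (820 rows, non-coding). All values by class include rows that reached 20 counts in 1 genotype only. Of the 195 that did so in delta4dus only, 60 rose and 0 fell, and they were not split by class. Change and level were related most closely in rows with a coding gene opposite, with a rho of -0.51, against -0.16 for non-coding RNA and -0.12 for nothing annotated. With library totals the medians were 0.14 for coding, turned positive with 218 higher and 53 lower, 0.40 for non-coding and 0.31 for nothing annotated. Chromosomes I, II and III had medians of 0.05, 0.06 and 0.06.

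**Figure D2:**
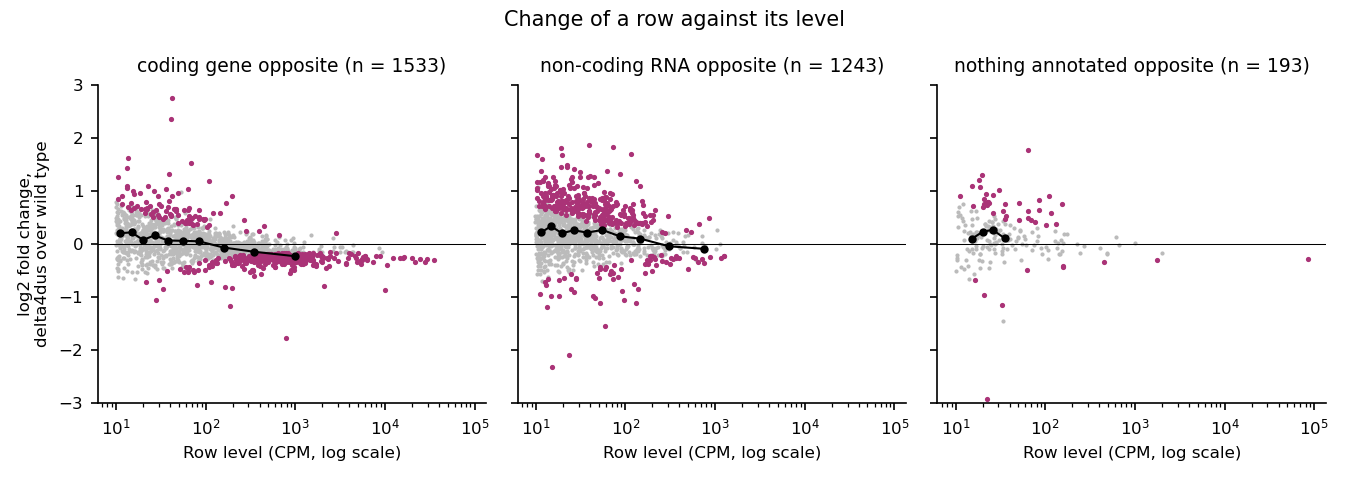
Change of each tested row (log2 fold change, delta4dus over wild type) against its mean level (CPM, log scale), split by what the annotation places on the other strand. Called rows are purple, others grey, and black points join the medians of 10% steps of level with at least 20 rows. The medians lie above 0 for low rows and reach -0.23 in the top 10% of rows with a coding gene opposite, and 3 rows of all classes lie outside the drawn range.

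The rows of the targeted genes were read next, in every library. The dus3 row held 24.3, 25.4 and 25.6 CPM in wild type A, B and C and 7.19, 4.29 and 3.07 CPM in delta4dus A, B and C. It fell by 2.32 on the log2 scale (SE 0.264, adjusted p = 4.19e-05), and the genotypes were far apart. Only an annotated non-coding RNA lies opposite it, and dus3 footprints changed by -7.56. The dus2 row held 16.2, 15.5 and 15.5 CPM in wild type and 10.2, 9.06 and 9.22 CPM in delta4dus, a change of -0.72 (adjusted p = 0.0274). The dus4 row held 73.8, 67.5 and 68.7 CPM in wild type and 54.2, 58.1 and 42.5 CPM in delta4dus (-0.43, adjusted p = 0.0307). The dus1 row went up, from 24.3, 25.4 and 22.4 CPM to 34.3, 38.6 and 32.8 CPM (0.55, adjusted p = 0.0243), while dus1 footprints were at 0 counts in delta4dus. In none of the 3 did the genotypes overlap. Leaving out any single library but wild type C ended the dus2 call (adjusted p of 0.0589 to 0.0794). The dus4 call ended without wild type A, delta4dus A or delta4dus C (0.0723 to 0.0993), and the dus1 call without wild type A, wild type C, delta4dus A or delta4dus B (0.0715 to 0.11). The dus1 call also ended with the trend of change on level removed (0.184).

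At dus1 and dus4, the rows of sec63 and prp4 rose more than any row elsewhere. Of the 3 genes on each side of the 4 loci, 18 of 24 rows were tested. Against 22.9% called in either direction over all 3791 rows of the fit, 9 rose while none fell. The 9 were 4 of 5 at dus1, 4 of 4 at dus4, 1 of 3 at dus3 and 0 of 6 at dus2. Of the 9, mug20 and SPCC777.17c lay below the minimum of 20 counts. The rows of sec63 and ekc1 reached 20 counts in delta4dus only, so the minimum set their direction. The calls of 7 held wherever an alternative gave a value, though mug20 and SPCC777.17c had a value in 11 of 14 alternatives and ekc1 in 13. The call of wtf14, a member of the wtf family of meiotic drivers and antidotes, was lost without delta4dus replicate A (adjusted p = 0.0679), and that of SPAC9E9.02 at dus3 without wild type replicate A (0.0763) or delta4dus replicate B (0.0545). Both were also lost with the trend of change on level removed (0.0597 and 0.0881).

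The row of sec63, a subunit of the channel that moves proteins into the endoplasmic reticulum, lies just before dus1 on the same strand. It held 3.77, 2.21 and 2.13 CPM in wild type and 187, 190 and 179 CPM in delta4dus, 68.4-fold higher (6.06, SE 0.177, adjusted p = 2.23e-12). Of that row's neighbours, svf2, a ceramide transport gene, rose by 1.37. On the other strand, pib1, a ubiquitin ligase gene that overlaps dus1 tail to tail by 61 bases, held 14.0, 13.3 and 12.8 CPM in wild type and 70.2, 68.6 and 66.6 CPM in delta4dus (2.35, adjusted p = 8.96e-08). The genotypes were well apart in each of these rows. Beyond pib1, the mug20 row rose by 2.33, and the row of the histone chaperone gene ccp1 did not pass (0.16, adjusted p = 0.0717).

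At dus4 the row of prp4, a protein kinase gene of pre-mRNA splicing, held 43.1, 36.5 and 44.2 CPM in wild type and 2178, 2151 and 2032 CPM in delta4dus. This was 51.4-fold higher (5.68, SE 0.0833, adjusted p = 2.66e-16), with no overlap. Like sec63, prp4 lies just before the targeted gene on the same strand. The row of ekc1, a protein phosphatase regulator gene whose end overlaps dus4 by 281 bases on the other strand, rose from 7.01, 3.87 and 10.7 CPM to 21.6, 21.4 and 14.9 CPM (1.42, adjusted p = 0.00411). SPCC777.17c, a mitochondrial ribosomal protein gene, rose by 1.45. The row of pmd1, the leptomycin exporter gene that comes next beyond the 3 genes counted on that side, fell by 1.12 on the log2 scale.

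Footprints of the same genes did not move with the largest of these rows. Footprints of sec63 changed by 0.03 (adjusted p = 0.914), those of prp4 by -0.26 (0.56) and those of ekc1 by 0.14 (0.274), and none passed. Those of pib1 rose by 1.18 (adjusted p = 0.0429) and those of svf2 by 0.46 (0.0358). How the loci were replaced is not given in the sources used here, so RNA from an inserted cassette and RNA of the neighbours cannot be told apart in these counts.

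**Figure D3:**
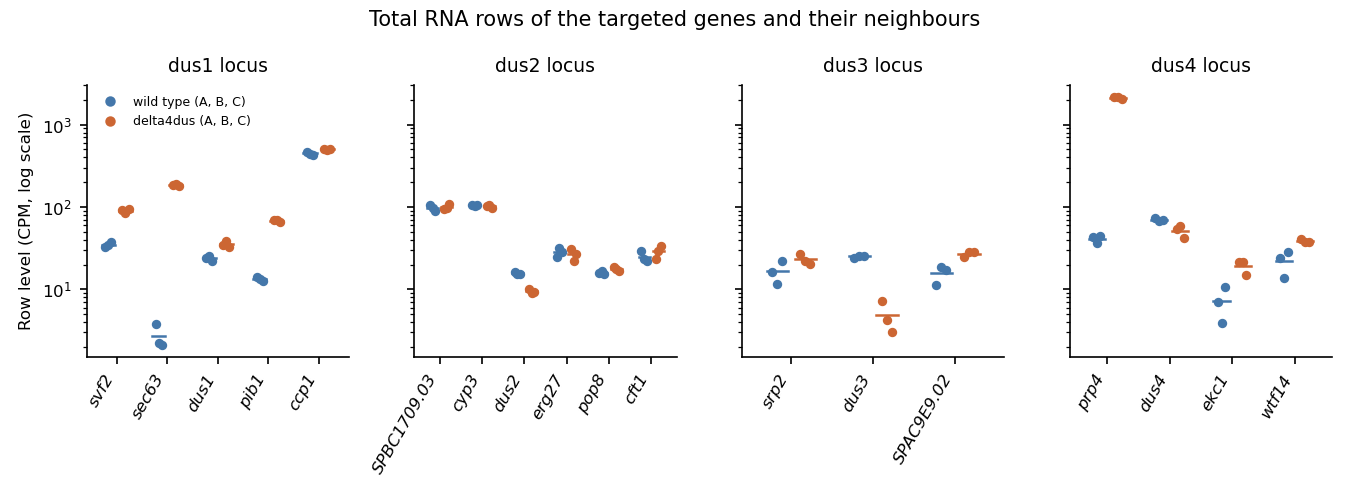
Level of each row (CPM, log scale) in each of the 6 libraries for dus1 to dus4 and for those flanking genes that reached the minimum of 20 counts, in chromosomal order. Points are libraries A, B and C, and bars are means. The rows of sec63 and prp4 stand out, with all delta4dus libraries at 179 CPM or above and 2032 CPM or above, against at most 3.77 and 44.2 CPM in wild type.

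Beyond dus1 to dus4 and the 3 genes on each side of them, the 12 largest rises ran from 1.49 to 2.75 and began from low levels, 4.88 to 53.9 CPM in wild type. In 8 of them only non-coding RNA lay opposite, in 3 a coding gene and in 1 nothing annotated. Of the 12, phx1, dcn1, hri1, alx1 and SPBC1271.08c reached 20 counts in delta4dus only, so the minimum set the direction of these 5. Each of the 12 was called in the alternatives that gave it a value, including the fit with the trend of change on level removed, but these 5 rows and ypa1 had no value in the fit on rows of mean 50 or more. The row of rmt1, the main protein arginine methyltransferase gene, held 9.70, 11.1 and 11.7 CPM in wild type and 72.3, 70.5 and 76.8 CPM in delta4dus (2.75, SE 0.161, adjusted p = 2.4e-08). Its 3 delta4dus libraries lay close together and far above wild type. The nucleoporin gene nup155 overlaps it tail to tail by 68 bases, and nup155 footprints changed by -0.31 (adjusted p = 0.042).

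The next rows were those of lsk1, a kinase gene of the RNA polymerase II tail, and nup211, a nuclear pore basket gene. The lsk1 row rose from 15.1, 19.9 and 16.0 CPM to 60.9, 55.8 and 70.2 CPM (1.87), and the nup211 row from 31.8, 30.4 and 33.6 CPM to 109, 136 and 91.7 CPM (1.82). In both, a non-coding RNA lies opposite, and its overlap with nup211 spans 4984 bases. Then came phx1, a stationary-phase transcription factor gene (1.80), puf5, a Pumilio-family RNA-binding gene (1.77), and dcn1, a neddylation gene (1.67). The row of hri1, an eIF2 alpha kinase gene of the stress response, rose by 1.67, from 4.80 to 4.98 CPM in wild type to 13.8 to 17.4 CPM in delta4dus.

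The row of sgt1, an snRNP-binding protein gene by its annotation, rose from 51.2, 49.8 and 60.8 CPM to 176, 191 and 155 CPM (1.69). It was the highest of the 12 in wild type. The remaining rows were those of alx1, which encodes a BRO1-domain protein (1.61), the uncharacterised SPBC1271.08c (1.60), the guanyl-nucleotide exchange factor gene lam2 (1.52) and the phosphatase 2A regulator gene ypa1 (1.49). Inside lam2 and on the other strand lies spo6, a regulator gene of a sporulation kinase, whose own row fell by 0.34 on the log2 scale, a call that ended with library totals (adjusted p = 0.0649) and with the trend removed (0.0812). Of the 12 genes named by these rows, none had footprints called higher. Footprints of 3 were called lower: phx1 (-1.01), puf5 (-0.67) and SPBC1271.08c (-2.23). Over all genes tested in footprints, 28.6% were called in either direction.

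The 12 largest falls ran from -1.01 to -5.16 and were called in the alternatives that gave a value, with none for pho84 in the fit on rows of mean 50 or more. The rows of med15 and pho84 reached 20 counts in wild type only. Among the 12 is the pmd1 row near dus4, given above. The row of med15, a Mediator subunit gene, fell the furthest. It held 289, 314 and 290 CPM in wild type and 9.73, 7.63 and 7.17 CPM in delta4dus, 36.4-fold lower (-5.16, SE 0.128, adjusted p = 3.05e-13). No coding gene overlaps it on the other strand, a non-coding RNA there overlaps it by 1276 bases, and med15 footprints changed by -0.21 (adjusted p = 0.33). The row of SPBC354.11c, which did not match the annotation, fell from 771, 839 and 667 CPM to 158, 153 and 162 CPM (-2.26), with footprints at or under 1 CPM in both genotypes.

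The row of php2, a subunit gene of the CCAAT-binding factor, fell from 1231, 1319 and 1128 CPM to 340, 352 and 388 CPM (-1.77, adjusted p = 1.77e-10). Opposite it lies tsp0, whose footprints changed by -0.17 (adjusted p = 0.521), while php2 footprints fell by 0.66 on the log2 scale. The gto2 row, named for an alpha-glucosidase gene, fell from 90.5, 92.9 and 77.3 CPM to 30.0, 32.9 and 26.6 CPM (-1.54). In each of these rows the lowest wild-type library lay well above the highest delta4dus library.

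The row of tgd1, a nucleotide-sugar dehydratase gene, went against its partner. It held 209, 335 and 238 CPM in wild type and 95.6, 131 and 121 CPM in delta4dus (-1.17), while footprints of gal10, which overlaps it by 3291 bases on the other strand, rose by 1.42 (adjusted p = 0.00704). The row of the phosphate transporter gene pho84 changed by -1.18 and that of the NEDD8 protease gene nep2 by -1.15, and their own footprints also fell, by 0.76 and 1.18 on the log2 scale. The anion transporter gene oac1 (-1.10) and the But2-family gene SPAC27D7.09c (-1.06) had lower rows but higher footprints (0.32 and 0.34). The outer-membrane translocase gene tom7 (-1.05), whose partner sip1 had footprints lower by 0.39 on the log2 scale, and the vitamin B6 carrier gene bsu1 (-1.01) completed the falls. In all 24 rows the genotypes did not overlap, which the naming rule required.

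**Figure D4:**
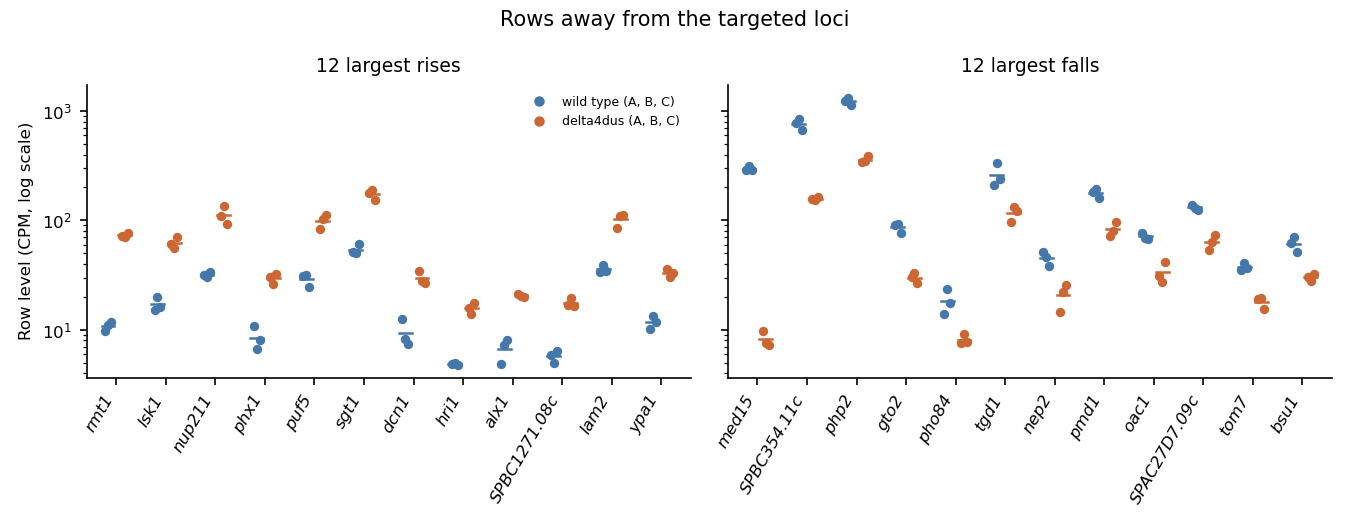
Level (CPM, log scale) of the 12 rows with the largest rises and the 12 with the largest falls outside dus1 to dus4 and the 3 genes on each side, in each library. Points are libraries A, B and C, and bars are means. The med15 row falls from 289 to 314 CPM in wild type to under 10 CPM in delta4dus, and the rises start at 4.88 to 53.9 CPM on average.

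Row changes were next set beside the footprint changes of the gene opposite, which come from other libraries. Over 1402 single-partner rows with a partner tested in footprints, rho was 0.04, and with the row's own footprints it was 0.01 (1366 rows). Partners taken by systematic ID (the next number of the same clone on the other strand) gave 0.02 over 2137 rows. The 171 rows that lie inside their partner gave 0.23, and convergent pairs, the most common arrangement, gave 0.06 over 1047 rows. Where partner footprints had risen at least 2-fold (27 rows, median footprint change 1.42), 7 rows rose, 2 fell and 18 did not pass, with a median of 0.10. Where they had fallen at least 2-fold (39 rows, median -1.34), 4 rose, 6 fell and 29 did not pass, with a median of -0.08. Single-partner rows as a whole rose in 5.89% and fell in 19.8%, with a median of -0.05. Of 100 rows called where the partner's footprints were called too (28.6% of footprint rows were), 51 had the same sign. With the trend of change on level removed, 35 of 47 such rows had the same sign (74.5%).

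**Figure D5:**
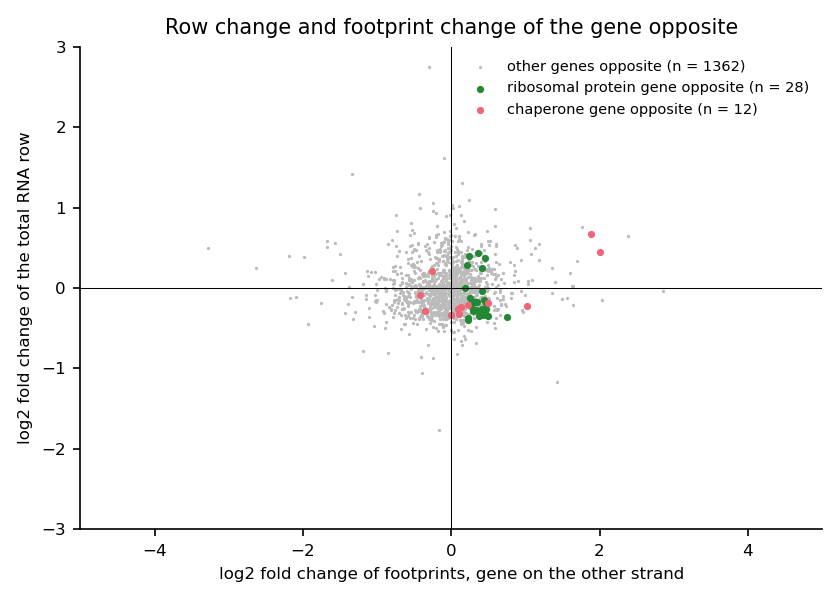
Change of the total RNA row (vertical axis, log2 fold change) against the footprint change of the gene opposite (horizontal axis, log2 fold change) for 1402 single-partner rows, 1 of which lies outside the drawn range. Rows opposite ribosomal protein genes (green, 28) sit to the right of 0 and mostly below it, and rows opposite chaperone genes (red, 12) are spread along the footprint axis with row changes of -0.33 to 0.67.

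Among rows opposite ribosomal protein genes, whose products build the ribosome, most fell, at a share near that of other high rows. Of 28 such rows, 17 fell, 11 did not pass and 0 rose, with a median of -0.26, and 6 of the 28 had values above 0. The share that fell was 60.7%, against 64.9% of the top 10% of rows and 67.2% of those with a coding gene opposite. Footprints of all 28 partners were called higher, with a median of 0.39. Beside that, 28.6% of all genes tested in footprints were called in either direction, and the top 10% of footprint rows had a median of 0.27. The row of str2, opposite rpl6, held 41405, 39482 and 34894 CPM in wild type and 31287, 29457 and 33652 CPM in delta4dus (-0.29, adjusted p = 0.0123). The genotypes did not overlap, although wild type C came near delta4dus C, and the call ended without wild type A (adjusted p = 0.0937) or B (0.0546) or delta4dus A (0.0900) or B (0.0694). The other 4 of the 5 highest single-partner rows changed by -0.26 to -0.35, and their calls too ended without wild type A (0.0542 to 0.153) or without delta4dus A (0.0643 to 0.146). In pdp1 the genotypes overlapped. The row of the helicase gene chl1, opposite rpl4101, changed by -0.39, that of SPAC1071.09c, opposite rpp203, by -0.38 and that of aar2, a splicing gene opposite rps1401, by -0.29. The SPAC1071.09c call ended without delta4dus A (0.0608) and the aar2 call without wild type A (0.0621) or delta4dus B (0.0530). These rows are among the highest of the table, with a median of 3777 CPM, and the top 10% as a whole had a median of -0.23. With the trend of change on level removed, 2 of the 28 rose, none fell and the median was 0.02, and with library totals 1 rose, 4 fell and the median was -0.07. Paralogous copies of these genes share much sequence, and footprints of a single copy are uncertain. Of the 19 rows of ribosomal protein genes by name, 1 rose, 2 fell and 16 did not pass.

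Among those 19, the rpl701 row shows what 1 library can do. It held 109 CPM in wild type A but 5.53 CPM in B, 3.73 CPM in C and 2.05 to 7.63 CPM in delta4dus, and its call (-2.93, adjusted p = 0.0414) turned to 0.13 without wild type A. The cct3 row had 916 counts in wild type C against 3 to 9 in the other libraries, and the ent1 row had 1792 in wild type B against 1 to 7. Both stayed out of the fit. The tef102 row of an elongation factor gene held 94.0 CPM in wild type B and 6.77 to 10.5 CPM elsewhere, and its call was lost without that library (adjusted p = 0.863). Leaving out any 1 of the 3 delta4dus libraries ended both calls too, with adjusted p of 0.0717 to 0.129 for rpl701 and 0.0613 to 0.164 for tef102. No row of delta4dus had a single library at least 10-fold above the others of its genotype.

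Rows opposite chaperone genes, whose products fold other proteins, moved both ways in the main fit. Of 12 such rows, 2 rose, 6 fell and 4 did not pass (median -0.22, partner footprints 0.12, 4 called higher and 2 lower). With library totals 2 rose and 2 fell, and with RLE factors or DESeq2 0 rose and 8 fell. Their median level was 1059 CPM, and the 50% that fell stand beside 64.9% of the top 10% of rows. The rows of nat2, gap1 and erd101 lie opposite cct4, cct6 and cct2, subunits of the cytosolic chaperonin ring. The nat2 row held 5572, 5573 and 5112 CPM in wild type and 4341, 4145 and 4409 CPM in delta4dus (-0.33, adjusted p = 0.00129). Changes were -0.33 for gap1 and -0.27 for erd101, while partner footprints changed by -0.01 to 0.11 and did not pass. The nse1 row, which hsp10 overlaps by 842 bases, held 8934, 9992 and 9631 CPM in wild type and 8355, 8425 and 7728 CPM in delta4dus (-0.22, adjusted p = 0.021), while footprints of hsp10, the mitochondrial co-chaperonin gene, rose by 1.02. The 2 that rose lie opposite the 2 partners of the 12 with the highest footprint changes: cwf28 (0.45) opposite fes1 (footprints 2.01) and SPBC1711.09c (0.67) opposite aha1 (1.88), with overlaps of 74 and 12 bases. The last 3 rows were named after their values were seen. Leaving out delta4dus A ended all 3 calls (adjusted p of 0.0554 to 0.125), as did other single libraries, and with the trend on level removed none of the 12 was called in either direction.

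Of 20 rows of chaperone genes by name, 4 rose, 1 fell, 14 did not pass and 1 was not tested, against 14.1% higher and 13% lower over all rows. The list holds sgt1, which the annotation names an snRNP-binding protein gene, and without it 3 of 19 rose. These were led by the Hsp70 gene ssa1, with 90.5, 89.1 and 82.6 CPM in wild type and 135, 135 and 141 CPM in delta4dus (0.65, adjusted p = 0.000353), and the J-domain gene mas5 (0.91). Footprints of ssa1 and mas5 rose as well, by 2.10 and 0.83. The mas5 row lies opposite alg12, whose footprints changed by -0.01. Across 1366 single-partner rows, rho of row change with own footprint change was only 0.01, so these 2 rows do not stand for a general relation. Rows opposite a list gene are set beside all single-partner rows, 5.89% higher and 19.8% lower. In the core stress list, the 8 rows opposite held none that rose and 3 that fell. The furthest was SPAC343.20 opposite rds1 (-0.79), a stress-related gene whose footprints changed by -1.19. The others were dsc2 (-0.48) opposite sod2 and dbs2 (-0.43) opposite mug143, and there the partner footprints changed upward, by 0.33 and 0.57. The dbs2 call ended without delta4dus A (adjusted p = 0.0554). By name, 2 of 17 stress rows rose, 1 fell and 14 did not pass.

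Only 3 rows lay opposite histone genes, whose products package DNA. Of the 3, 2 rose and 1 did not pass (median 0.32), with partner footprints at 0.36. Single-partner rows as a whole were 5.89% higher and 19.8% lower, against 14.1% and 13% over all rows. The sec5 row, opposite htb1, is 1 of the 6 rows of the top 10% that rose (0.21, adjusted p = 0.0267), and rav1 opposite hht3 rose by 0.45 with overlapping genotypes, but both calls ended with DESeq2 (adjusted p = 0.153 and 0.238) and without wild type A (0.111 and 0.123) or B (0.187 and 0.0725) or delta4dus A (0.102 and 0.13) or B (0.146 and 0.141). By name, none of 5 histone rows passed.

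Rows of cell-division and development genes moved both ways. These and the lists after them are read against 14.1% higher and 13% lower over all rows. Rows opposite list genes are read against 5.89% higher and 19.8% lower of single-partner rows. Of 28 chromosome segregation rows, 6 rose, 5 fell and 17 did not pass (median 0.04). The mis4 row, named for the cohesin loader gene, held 29.6, 29.9 and 33.0 CPM in wild type and 71.1, 65.3 and 68.1 CPM in delta4dus (1.14, adjusted p = 4.62e-05), while mis4 footprints changed by -0.60. The row of swi6, the heterochromatin protein gene, rose by 1.09. Of 25 meiosis and sporulation rows, 2 rose, 3 fell and 20 did not pass. The hop1 row, named for a chromosome axis gene of meiosis, held 67.9, 50.9 and 119 CPM in wild type and 190, 214 and 136 CPM in delta4dus (1.18, adjusted p = 0.002). Wild type C was again the library nearest to delta4dus. The isp3 row, of a sporulation gene, rose by 1.44. Of 16 mating and pheromone rows, 4 rose, 1 fell and 11 did not pass. They included the formin gene fus1 (0.58) and the kinase gene byr1 (0.39), and hem4, opposite the pheromone kinase gene spk1, fell by 0.82 on the log2 scale with footprints of spk1 at 0.07. Of 16 tubulin and microtubule rows, 3 rose and 2 fell, among them nda3, the beta tubulin gene (0.75), and gtb1, the gamma tubulin gene (-0.28), and neither call held with the trend removed. The gtb1 call also ended without delta4dus A (0.0639) or B (0.0625).

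Of 24 rows of other tRNA modification genes, 4 rose, 5 fell and 15 did not pass (median 0.02). The elp6 row, of an Elongator subunit gene, held 604, 580 and 529 CPM in wild type and 388, 403 and 448 CPM in delta4dus (-0.47, adjusted p = 0.000483), and the pus7 row, of a pseudouridine synthase gene, changed by -0.29. The pus7 call ended with library totals (-0.09, adjusted p = 0.204) and with the trend removed (-0.09, 0.266). The mod5 row rose by 0.94 and is annotated as a Tea1-anchoring protein gene, not as a tRNA modifier. Opposite such genes, 1 of 14 rows rose and 1 fell. Of 9 Tf2 retrotransposon rows, none passed (median 0.22), and their copies are near identical.

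In metabolism, glycolytic rows split 3 higher, 3 lower and 10 not called. The gpd3 row, of a glyceraldehyde 3-phosphate dehydrogenase gene, rose from 19.9, 15.5 and 16.0 CPM to 40.2, 38.1 and 54.8 CPM (1.36, adjusted p = 0.000311), while gpd3 footprints changed by 0.08. The row named adh1, low in level, rose by 0.41, while that of SPCC13B11.02c, whose nearest gene on the other strand is adh1, fell, as given above. Of 21 sterol and fatty acid rows, 1 rose, that of idi1, the isopentenyl diphosphate isomerase gene (1.01), and none fell. Of 7 phosphate and thiamine rows, 1 rose and 3 fell, among them pho84 and bsu1, given above. None of 5 uracil or 7 haem synthesis rows by name passed, and footprints of the uracil genes measured had a median of -2.63. Of 2 rows opposite uracil genes, 1 rose, that of mal1 (0.25) opposite urh1, whose footprints changed by -2.63. The mal1 call ended with DESeq2 (adjusted p = 0.22) and without wild type A (0.158). Of 3 rows opposite haem synthesis genes, 0 passed. Of 12 glucose-repressed rows, 1 rose and 1 fell, of 9 iron and copper rows 1 rose and 2 fell, and of 15 nitrogen starvation rows 2 rose and 1 fell. Among 9 proteasome rows, 1 rose and 1 fell, and among 11 respiratory chain rows none rose and 1 fell, while ppa2, opposite the iron-sulfur protein gene rip1, fell by 0.38 on the log2 scale with footprints of rip1 at 0.60. With the trend removed, ppa2 changed by -0.10 and its call ended (adjusted p = 0.0602). Ribosome biogenesis rows were led by rqt2, opposite enp1, which rose by 1.03, and nop2, which fell by 0.46 on the log2 scale. Of 12 translation factor rows, only tef102 passed.

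Of the strain markers, ura4 is given first. The row of ura4, the uracil auxotrophy marker, held 23.2, 17.7 and 25.6 CPM in wild type and 36, 32.9 and 26.1 CPM in delta4dus (0.52, adjusted p = 0.0656), which did not pass although the groups did not overlap. The leu1 row changed by -0.34 and the ade6 row by 0.72, and neither passed. Of 7 marker rows above the minimum, only lys1 passed (-0.39), a call that ended without delta4dus A (adjusted p = 0.0581). It lies inside prm1, a cell fusion gene on the other strand, whose footprints changed by -1.33.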

How the data were processed

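Total RNA of 6 libraries and ribosome footprints of 6 libraries were analysed. The authors deposited raw read counts per transcript, 1 table per assay, and per the submitters' processing notes used Trimmomatic 0.36, Bowtie2 2.4, HISAT2 and featureCounts on build ASM294v2. Neither the strand setting nor the annotation release is given in the sources used here. The authors' deposited table of log2 fold changes states no tool or scaling. Its total RNA column ranked 2887 of the rows as here (rho 1.00), with values lower by a median of 0.26, so that 70.1% of them were negative against 43.5% here.

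Counts were tested with edgeR 4.0.16 in R 4.3.3 (quasi-likelihood, TMM, default filterByExpr, two-sided, Benjamini-Hochberg over all rows, threshold 0.05). On simulated counts for 3791 rows, 96 of 100 rows changed 2-fold and 58 of 100 changed 1.5-fold were recovered, with 3 false calls. The simulation held no trend of change on level, so its false calls give no error rate for the calls made here. Opposite genes came from the ASM294v3 annotation, which matched 5106 rows by ID (5102 coding, 4 pseudogenes) and not 30, with an overlap of at least 1 base. No sequence or coordinate is given, since the builds differ. The partner signal was footprint CPM per kb of coding length times the overlap. The trend on level was removed with offsets from a cyclic loess of log2 counts. That alternative, and those on partners of at least 50 footprint CPM and rows inside their partner, were chosen after seeing the data. DESeq2 1.42.0 was used as an alternative, and Python 3.11.15, numpy 2.4.6, pandas 2.3.3, scipy 1.17.1 and matplotlib 3.10.9 for summaries and plots. Levels and 0 counts carry counting error, with 3 counts worth 1.27 to 1.66 CPM in a total RNA library.

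The letters were not taken to pair libraries: same-letter deviations correlated at 0.02, -0.04 and -0.22. The rows, the 24 gene lists and the tests were chosen with earlier results of these data known. Named rows were those of dus1 to dus4 and the 3 genes on each side, the 12 largest rises and 12 largest falls among called rows with no overlap, the 5 highest single-partner rows and the 5 highest with no gene overlapping opposite, and up to 3 called rows per list and reading with the smallest p, and some of them are given here only within counts.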

Additional observations from a re-analysis of the deposited data

How the results depend on the processing

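Counts of calls moved with the scaling and the libraries. Against 420 higher and 388 lower, DESeq2 called 229 and 420, library totals 727 and 79, the fit with the trend on level removed 250 and 194, and the fits that left out 1 library each 241 to 395 higher and 185 to 473 lower. In the replicate block fit, 275 and 195 were called. The gap between low and high rows ran from 0.38 to 0.49 without 1 library, while scaling leaves it at 0.43 and trend removal takes it out by construction. The dus2 change was -0.79 with DESeq2 (adjusted p = 0.0915), -0.53 with library totals (0.0927), -0.72 with the replicate block (0.0634) and -0.69 to -0.78 without 1 library. The dus1 change was 0.49 with DESeq2 (0.132), 0.55 with the replicate block (0.0569), 0.35 with the trend removed (0.184) and 0.47 to 0.59 without 1 library. The dus4 change was -0.24 with library totals (0.247), -0.39 with rows of mean 50 or more (0.0512), -0.45 with the replicate block (0.0675) and -0.32 to -0.53 without 1 library.

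The rho of row change with partner footprint change was 0.0081 with overlaps of at least 100 bases, 0.12 with the trend removed, 0.089 for partners of at least 50 footprint CPM, 0.23 for rows inside their partner and 0.016 to 0.078 without 1 letter. With the trend removed, sign turned in high rows, to small positive values: str2 0.069, SPAPB17E12.14c 0.017, spc24 0.072, ice2 0.013, pdp1 0.091, SPCC13B11.02c 0.1003, erd101 0.0205, aar2 0.0088, mcm3 0.025, wdr70 0.0747 and nse1 0.094. The mcm3 row, opposite qcr9, also stood at 0.00068 with library totals. The rpl701 row ran from -3.50 to 0.13 without 1 library. For 123 rows eligible for naming, 1683 values in 14 alternatives held 1396 with the same call and direction, 266 with the call lost, 8 with a call gained and 13 with the sign turned. By row, 113 were called in the main fit and 57 lost the call in at least 1 alternative. Of 80 called list rows, 34 kept the call in every alternative that gave a value, and of the 5 highest single-partner rows 0 did. The 12 largest rises and 12 largest falls kept their calls where a value was given, which the fit on rows of mean 50 or more lacked for 6 rises and 1 fall. The cause of the other changes was not tested.

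Depth limits rows near the minimum, and 1.5-fold changes were recovered in 58 of 100 simulated rows. The strand setting is not given and the letters may be technical repeats.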
